A study of Mus musculus with 5 samples.

Results

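The RNA of the p53 gene, Trp53, and of 9 direct targets of the p53 protein is described here in NIH/3T3 mouse fibroblasts that carry a mutant or a wild-type human histone H2A. The 10 genes are Trp53, Mdm2, Mdm4, Ccng1, Sesn1, Trp53inp1, Zmat3, Phlda3, Aen and Plk2. They were chosen by symbol as p53 and well-known targets of p53, with earlier results of these data known. All 10 were among the 14454 genes listed in each expression table.

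Messenger RNA was sequenced in 5 lines of NIH/3T3, an immortalised line of mouse embryonic fibroblasts. In 4 lines, numbered 3, 6, 15 and 18, the integrated histone was EGFP-H2A with the T120D substitution, in which an aspartate replaces a threonine of the C-terminal tail. In the remaining line it was wild-type EGFP-H2A (wt). All 5 lines therefore carried an EGFP fusion of human H2A beside their own H2A genes, and no line without a transgene was among them. All were grown in DMEM with 10% fetal calf serum and 10 µg/ml gentamicin, and no DNA-damaging treatment is named. The labels give neither the promoter of the transgene nor whether a line was 1 clone. The title of the series concerns oncogenic transformation through cyclin D1, and Ccnd1 averaged 121.2 ± 13.3 RPKM in T120D lines (SD, n = 4), against 46.5 RPKM in the wt line.

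The p53 protein is a transcription factor that is kept scarce in unstressed cells and accumulates mainly through protein stability rather than through its RNA. Mdm2 is a ubiquitin ligase that marks p53 for degradation, and Mdm4 is its relative that binds p53 and holds back its activity. Because p53 activates Mdm2, the pair forms a negative feedback loop. The other genes act downstream in cell-cycle arrest, cell death, growth control and survival. NIH/3T3 cells are known to have lost the Cdkn2a locus, whose Arf product restrains Mdm2. Cdkn2a was looked up as a regulator of p53 but had no entry under that symbol, and protein levels were not analysed.

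Values are RPKM, reads scaled to kilobases of transcript and to the mapped reads of the library. The depth estimated from the tables was 2510000 to 2700000 reads in T120D lines and 2720000 in the wt line, which makes 1 RPKM worth 2.51 to 2.72 reads per kilobase. Across the 10052 genes that averaged at least 1 RPKM over the 5 lines, Pearson's r between lines, across genes, was 0.971 to 0.975 among T120D lines and 0.915 to 0.926 between T120D lines and wt. Lines 3, 15 and 18 lay closest together, with a chi-square of estimated reads per gene of 1.66 to 1.88, against 2.27 to 2.84 between line 6 and these 3, where counting noise gives 1. Lines 3, 15 and 18 may thus share an origin and count for fewer than 3 independent samples. Separate cultures are not stated in the labels, so p-values measure only the spread between these samples, which may be technical. Of 10 tested fibroblast markers, 7 fell, among them Fn1 and Col3a1, and 1, Thy1, rose, so 80% were called (limma adjusted p under 0.05), against 13.1% of all tested genes. The other 2, Vim and Col1a1, were not called. Vim was at 801 to 848 RPKM in T120D lines, against 701 RPKM in wt, and for Col1a1 wt lay within the T120D range. The summed RPKM of the fibroblast markers was 2328 to 2705 in T120D lines and 3109 in the wt line. Only 3 of 6 epithelial, 3 of 4 endothelial, 2 of 5 skeletal muscle and 3 of 5 macrophage markers had an entry. The level of the rest is unknown. The listed epithelial, endothelial and skeletal muscle markers reached at most 0.682 RPKM in any line, and the endothelial Pecam1 and Tek were at 0 in all. The highest macrophage marker, Cd14, was at 5.32 RPKM and the highest neural one, Map2, at 3.83 RPKM, and of the 3 tested macrophage and neural markers 0 were called by limma with or without a trend, with 2 at an unadjusted p under 0.05. The part of these markers in the results was not tested. In bulk RNA, fewer cells of a type and less RNA per cell cannot be told apart.

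The start-site regions of the members were searched for the p53 decamer, the unit of which a full p53 binding site holds a pair. Windows from 250 bases before to 50 bases after annotated starts, from RefSeq on GRCm38.p6, were found for 8 of the 10 genes (11 windows). A decamer without mismatch was present for 5 of these 8 genes, and in 9.55% of the 27025 genes with a window. The decamer reads the same on both strands by its rule. No member window held 2 decamers within 13 bases of each other, or a pair of CATG cores at the spacing of 2 adjoining decamers, which were found in 0.0731% and 0.712% of all 32851 windows. The 5 decamers are shown in capitals with 10 bases on each side, 5′ to 3′ on the strand of the gene, because they are the only stretches of these windows that match the p53 unit.
Mdm2: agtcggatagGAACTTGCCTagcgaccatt
Aen: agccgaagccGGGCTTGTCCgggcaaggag
Ccng1: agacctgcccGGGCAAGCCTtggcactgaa
Trp53: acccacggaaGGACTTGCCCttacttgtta
Sesn1: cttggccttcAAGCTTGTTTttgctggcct
On GRCm38.p6 these stretches lie at chr10:117710925-117710954 (minus strand) for Mdm2, chr7:78895927-78895956 (plus) for Aen, chr11:40755452-40755481 (minus) for Ccng1, chr11:69580274-69580303 (plus) for Trp53 and chr10:41887256-41887285 (plus) for Sesn1. The decamer began 186 bases before the start of Mdm2, 185 before that of Ccng1, 75 before that of Trp53 and 173 before the downstream start of Sesn1. In Aen it lay 121 bases before 1 annotated start and 10 bases after another. The windows of Mdm4, Phlda3 and Plk2 held no decamer. A match is a string of letters and not a measured binding site.

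Mdm2 and Aen rose in the T120D lines, Mdm4 and Trp53inp1 fell, and the other 6 genes, Trp53 among them, were not called. Differences are T120D mean minus wt on the log2(RPKM + 1) scale, which understates changes of low genes. They were tested with limma across all 10052 genes, and a call is a Benjamini-Hochberg adjusted p under 0.05. With 4 of 10 members called, the share is to be read against 13.1% of all tested genes, 7.65% higher and 5.45% lower. Because the members were chosen with earlier results of these data known, the share is a description only. The members' median log2 difference was -0.09, against -0.02 over all tested genes, and the 4 calls were split evenly between the directions. All spread entering the test came from T120D lines, and the single wt line was taken to vary as much as they did. The smallest two-sided p of an exact permutation test with 5 lines, 1 of them wt, is 0.4.

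**Figure D1:**
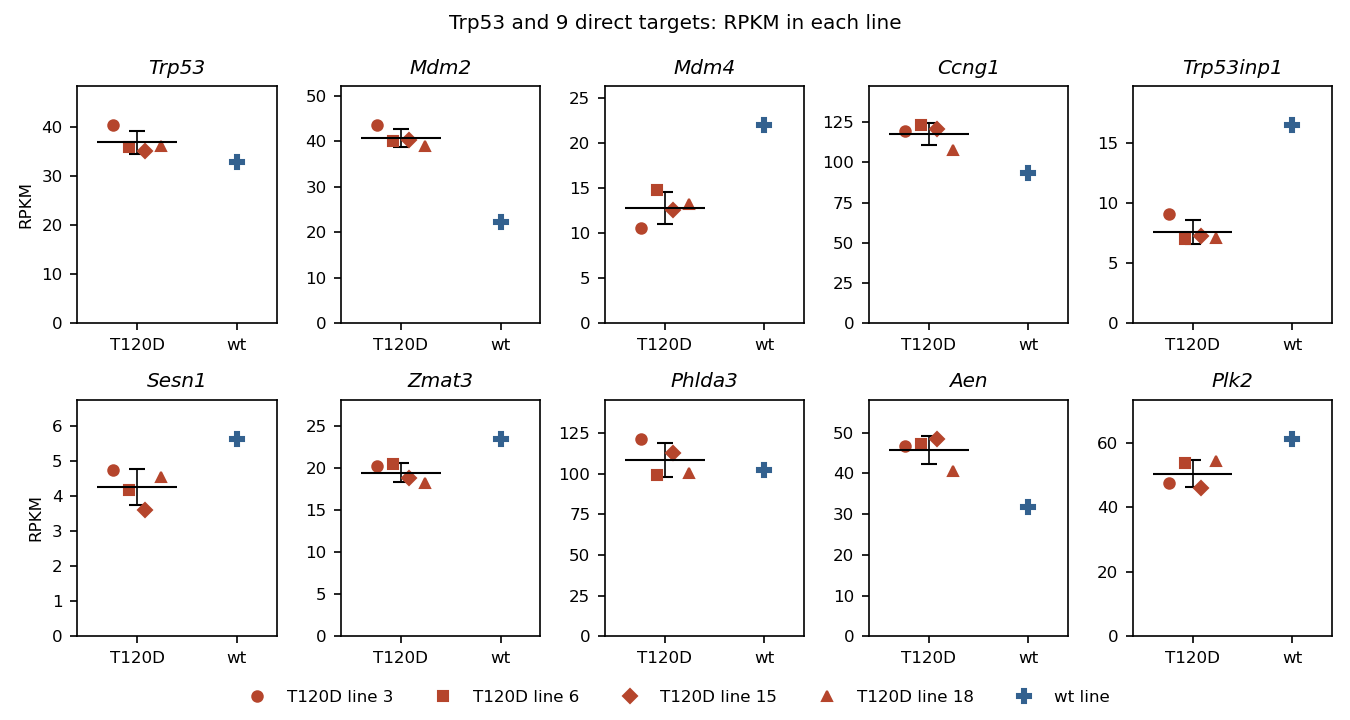
RPKM of Trp53 and 9 direct targets in each line, with the 4 T120D lines (red symbols, 1 per line; horizontal bar, mean; error bar, SD, n = 4) left of the single wt line (blue cross); each panel starts at 0 and has its own scale. The wt line lies below all 4 T120D lines in 4 panels, above all of them in 5 and within their range for Phlda3.

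Trp53 itself was at 40.3, 35.9, 35.1 and 36.2 RPKM in T120D lines 3, 6, 15 and 18, against 32.8 RPKM in the wt line. All 4 T120D lines lay above wt, and line 3 was the highest. The mean was 36.9 ± 2.36 RPKM in T120D (SD, n = 4), 12.4% above wt, with a log2 difference of 0.16 (SE 0.12, 95% confidence interval -0.11 to 0.43). It was not called (limma adjusted p = 0.42). The interval allows ratios from 0.926 to 1.35, so a moderate change in Trp53 RNA could not be told from none. A pseudogene, Trp53-ps, is annotated in the mouse, and how reads shared with it were counted is not given in the sources used here. Wrap53, the gene next to Trp53 on the opposite strand, was at 1.80 to 2.73 RPKM in T120D lines, against 2.71 RPKM in wt, and in the GENCODE M21 annotation no exon of another gene overlapped those of any member.

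Mdm2, the ligase of the feedback loop, had the highest difference of the 10 genes. It was at 43.5, 40.01, 40.2 and 39.0 RPKM in T120D lines 3, 6, 15 and 18, against 22.2 RPKM in the wt line. The 4 T120D lines lay within 4.51 RPKM of each other and all stood well above wt. The mean was 40.7 ± 1.96 RPKM in T120D (SD, n = 4), 1.83-fold higher, with a log2 difference of 0.85 (SE 0.11, 95% confidence interval 0.59 to 1.10, limma adjusted p = 0.00211). This lies above 96.2% of all tested genes. The call held under all 11 alternatives, with adjusted p of 0.00157 to 0.0233. About 187 reads stood behind the wt value and 317 to 338 behind each T120D value.

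Mdm4, the second inhibitor of p53, moved the other way. Its values were 10.5, 14.8, 12.6 and 13.3 RPKM in T120D lines 3, 6, 15 and 18, against 22.0 RPKM in the wt line. All T120D lines lay below wt, with line 3 the lowest and line 6 the highest. The mean was 12.8 ± 1.77 RPKM in T120D (SD, n = 4), 1.72-fold lower, with a log2 difference of -0.74 (SE 0.18, 95% confidence interval -1.15 to -0.34, limma adjusted p = 0.0277). The call ended by limma with no trend (adjusted p = 0.0674), with no filter on low values (0.122) and with lines 3, 15 and 18 averaged as 1 sample (0.0509). Over all 11 alternatives its adjusted p was 0.0171 to 0.122 and the difference stayed between -0.81 and -0.66. Annotated coding transcripts of Mdm4 range from 1914 to 7105 bases, so the wt value rests on roughly 114 to 424 reads. Mdm4-ps, a pseudogene on chromosome X, is annotated as well, and reads shared with it are uncertain.

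The balance of the 2 inhibitors therefore differed between the lines. Mdm2 over Mdm4, both per kilobase, was 4.13, 2.70, 3.19 and 2.94 in T120D lines 3, 6, 15 and 18, against 1.01 in the wt line. The ratio was thus at least 2.70 in every T120D line. Its size within a line depends on the transcript lengths behind the RPKM values, which are not given. Annotated coding transcripts have 1914 to 7105 bases for Mdm4 and 3099 for Mdm2. The ratio can therefore be compared between lines but does not give the relative amounts of the 2 RNAs. Set against Trp53 RNA, Mdm2 was at 1.08 to 1.15 in T120D lines and 0.676 in wt, and Mdm4 at 0.261 to 0.413 in T120D lines and 0.669 in wt. The 2 ranges do not overlap with wt in either case. These ratios combine differences already given and were not tested further.

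**Figure D2:**
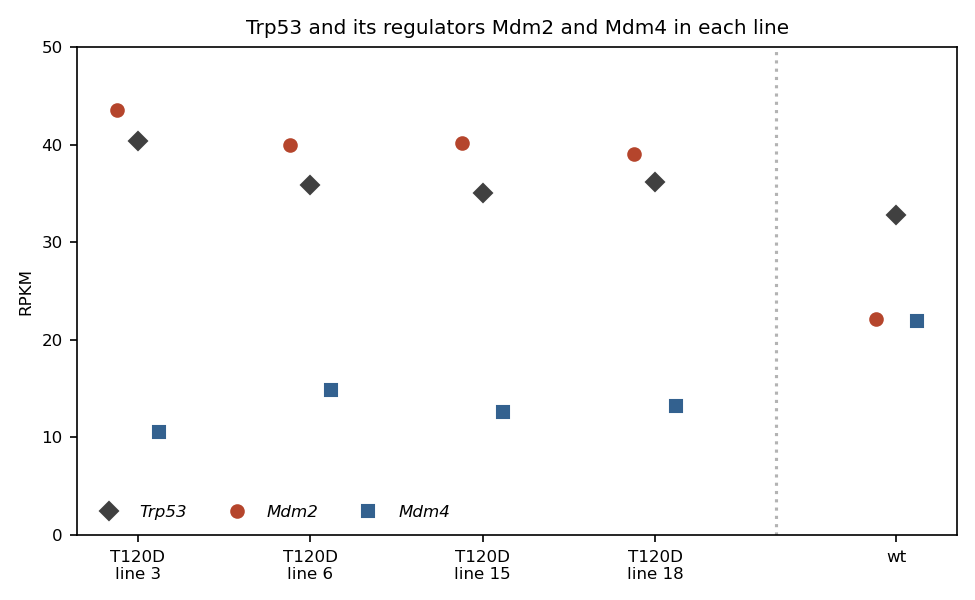
RPKM (vertical axis, from 0) of Trp53 (grey diamonds), Mdm2 (red circles) and Mdm4 (blue squares) in T120D lines 3, 6, 15 and 18 and, right of the dotted line, in the wt line; 1 library per line, no error bars. Mdm2 lies at 39.0 to 43.5 RPKM in T120D lines and at 22.2 in wt, beside Mdm4 at 22.0.

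Ccng1 and Trp53inp1 also feed back on p53. Ccng1 encodes cyclin G1, which brings a phosphatase to Mdm2, and it had the highest mean level of the 10 genes in T120D, although Phlda3 was higher in line 3. It was at 119.6, 123, 121 and 107.8 RPKM in T120D lines 3, 6, 15 and 18, against 93.6 RPKM in the wt line. All T120D lines lay above wt, with line 18 the nearest to it. The mean was 117.9 ± 6.87 RPKM in T120D (SD, n = 4), 1.26 times the wt value, with a log2 difference of 0.33 (95% confidence interval 0.10 to 0.56). It was not called (limma adjusted p = 0.0692), although its unadjusted p was 0.0108. Over the 11 alternatives its adjusted p was 0.0501 to 0.222.

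Trp53inp1 encodes a nuclear stress protein that promotes p53 phosphorylation and cell death, and it had the lowest difference of the 10. It was at 9.07, 7.03, 7.22 and 7.09 RPKM in T120D lines 3, 6, 15 and 18, against 16.5 RPKM in the wt line. The T120D lines all lay far below wt, and lines 6, 15 and 18 were nearly equal with line 3 above them. The mean was 7.60 ± 0.979 RPKM in T120D (SD, n = 4), 2.17-fold lower, with a log2 difference of -1.03 (SE 0.18, 95% confidence interval -1.44 to -0.62, limma adjusted p = 0.0076). Only 2.67% of tested genes had a lower difference. The call held under all 11 alternatives, with adjusted p of 0.00526 to 0.0483. About 242 reads stood behind the wt value and 100 to 123 behind each T120D value.

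Aen, the apoptosis-enhancing nuclease, was the second gene to rise. It was at 46.7, 47.3, 48.5 and 40.5 RPKM in T120D lines 3, 6, 15 and 18, against 31.8 RPKM in the wt line. Lines 3, 6 and 15 were close together and line 18 lay between them and wt. The mean was 45.8 ± 3.55 RPKM in T120D (SD, n = 4), 1.44-fold higher, with a log2 difference of 0.51 (SE 0.13, 95% confidence interval 0.22 to 0.79, limma adjusted p = 0.03). The call rested on the chosen lines and settings. It ended without line 3 (adjusted p = 0.0667), without line 15 (0.0582), without the filter on low values (0.0985) and by limma without a trend (0.102), and over the alternatives adjusted p was 0.0228 to 0.102.

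Phlda3, which encodes a small protein that competes with Akt for membrane lipids, was the most abundant member in the wt line. It was at 121.3, 99.4, 112.9 and 100.1 RPKM in T120D lines 3, 6, 15 and 18, against 102.5 RPKM in the wt line. It was the only member whose wt value fell within the T120D range. The log2 difference was 0.08 (95% confidence interval -0.21 to 0.36, limma adjusted p = 0.735), which allows ratios from 0.867 to 1.28.

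The remaining 3 targets had lower values in every T120D line than in wt and were not called. Plk2, a polo-like kinase gene that also responds to serum, was at 47.6, 53.7, 46.0 and 54.3 RPKM in T120D lines 3, 6, 15 and 18, against 61.1 RPKM in the wt line. Its log2 difference was -0.28 (95% confidence interval -0.56 to 0.00, limma adjusted p = 0.182). Zmat3, encoding a zinc-finger RNA-binding protein, was at 20.3, 20.6, 18.9 and 18.2 RPKM in the same T120D lines, against 23.5 RPKM in wt. The T120D lines spanned 2.35 RPKM, and the log2 difference was -0.26 (95% confidence interval -0.56 to 0.04, limma adjusted p = 0.232). Sesn1, a sestrin gene that restrains growth signalling through mTORC1, was the lowest member at 4.74, 4.18, 3.60 and 4.55 RPKM in T120D lines, against 5.64 RPKM in wt. Its log2 difference was -0.34 (95% confidence interval -0.80 to 0.12, limma adjusted p = 0.314). Some 25 to 58 reads stood behind each Sesn1 value, depending on line and transcript length, the fewest of the 10 genes.

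**Figure D3:**
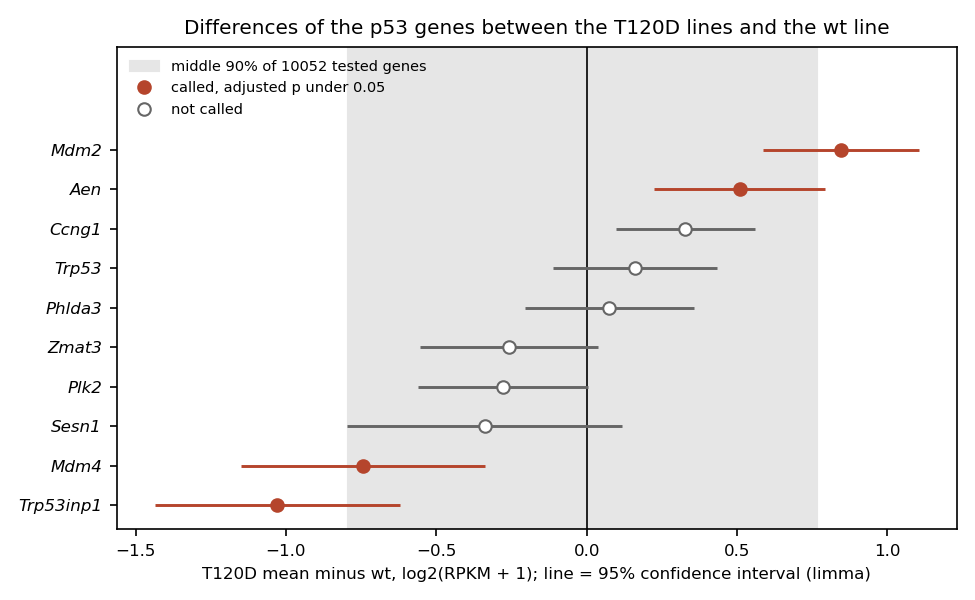
Difference of the T120D mean from the wt line on the log2(RPKM + 1) scale for the 10 genes, ordered by size, with 95% confidence intervals from limma; filled red circles passed an adjusted p of 0.05 and open circles did not, and the grey band spans the middle 90% of all 10052 tested genes (-0.80 to 0.77). Mdm2 at 0.85 and Trp53inp1 at -1.03 lie outside the band.

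For 4 of the 10 genes every T120D line was above wt, as for 31.1% of the genes tested, and for 5 every T120D line was below it, as for 32.3%. In the T120D lines the order of mean levels ran from Ccng1 and Phlda3 through Plk2, Aen, Mdm2 and Trp53 to Zmat3, Mdm4, Trp53inp1 and Sesn1. Ranges of neighbours overlapped for Ccng1 and Phlda3, for Plk2 and Aen, for Aen and Mdm2, and for Mdm2 and Trp53. In the wt line Trp53 stood above Aen and Mdm2, and Mdm2 and Mdm4 were next to each other. Among the T120D lines the members varied little. The coefficient of variation ran from 4.81% for Mdm2 to 13.8% for Mdm4. For Trp53, Mdm2 and Sesn1 the SD of log2 values between T120D lines (0.09, 0.07 and 0.14) was below the spread that counting reads alone gives (0.11, 0.08 and 0.22). For the other 7 genes it was above the counting spread. It was 0.09 against 0.04 for Ccng1, 0.14 against 0.07 for Phlda3 and 0.12 against 0.07 for Plk2. It was 0.19 against 0.17 for Mdm4, 0.16 against 0.12 for Trp53inp1, 0.11 against 0.09 for Aen and 0.08 against 0.07 for Zmat3. The counting spread was computed at the shortest annotated coding transcript and would be smaller at a longer one. This matters most for Mdm4 (1914 to 7105 bases) and Aen (2007 to 4956 bases). Intervals from reads cover counting error only.

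The genes nearest to the 2 extreme members in their pattern over the 5 lines were sought among all tested genes by Euclidean distance of centred log2 values. Nearest to Mdm2 were Phc2, a Polycomb component gene, at a distance of 0.0349, Srprb at 0.0509 and Cpeb2 at 0.0595. Phc2 averaged 50.4 ± 2.77 RPKM in T120D lines (SD, n = 4), against 27.05 RPKM in the wt line, a log2 difference of 0.87. Among those nearest to Trp53inp1 were Jhdm1d (0.128) and Ank2 (0.167). Jhdm1d averaged 1.47 ± 0.197 RPKM in T120D lines, against 4.22 RPKM in the wt line. The distances use log2(RPKM + 1), which shrinks the differences of low genes. Cpeb2, at 2.55 RPKM in T120D lines, was 2.62-fold higher than in wt, against 1.83-fold for Mdm2. Jhdm1d was 2.86-fold lower, against 2.17-fold for Trp53inp1. With 5 lines such likeness is a description and was not tested.

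Other direct targets of p53 were counted by role. Of 47 further targets, 44 were listed in the tables and 37 tested, and 4 rose and 3 fell in T120D (18.9%, against 13.1% of all tested genes). Their median log2 difference was 0.16, against -0.02 over all tested genes. The lists, too, were chosen with earlier results of these data known, so these shares are descriptions.

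Among 6 tested genes of cell-cycle arrest, 1 rose and 0 fell (16.7% called, against 13.1% of all tested genes). The riser was Gtse1, a G2 and S-phase protein gene whose product shuttles p53 out of the nucleus. It averaged 16.7 ± 1.75 RPKM in T120D lines (SD, n = 4), against 9.04 RPKM in wt (log2 difference 0.81, limma adjusted p = 0.0126), a call that ended with no filter on low values (0.0651). Cdkn1a, which encodes the CDK inhibitor p21 and is the best-known arrest target, was at 137, 148.8, 124.9 and 132.2 RPKM in T120D lines 3, 6, 15 and 18, against 110.5 RPKM in wt. All 4 T120D lines lay above wt, but the gene was not called (log2 difference 0.29, 95% confidence interval 0.05 to 0.53, limma adjusted p = 0.113). Relative to Trp53 RNA, Cdkn1a was at 3.40 to 4.15 in T120D lines and 3.37 in wt. Btg2, an antiproliferative gene, averaged 9.88 ± 1.56 RPKM in T120D lines, against 5.71 RPKM in wt (log2 difference 0.69, limma adjusted p = 0.0592). Plk3, a polo-like kinase gene, averaged 3.50 ± 0.966 RPKM in T120D lines, against 1.70 RPKM in wt (log2 difference 0.71, limma adjusted p = 0.14). The other 2 tested arrest genes had lower means in T120D and were not called. Psrc1, a spindle protein gene, averaged 18.8 ± 1.75 RPKM in T120D lines, all below the 24.7 RPKM of wt (log2 difference -0.38, limma adjusted p = 0.121). Gadd45a, a stress-response gene, averaged 10.6 ± 3.48 RPKM in T120D lines, a range that held the 13.9 RPKM of wt (log2 difference -0.40, limma adjusted p = 0.417).

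Among 9 tested genes of apoptosis, 1 rose and 1 fell (22.2% called, against 13.1% of all tested genes). Fas, the death receptor gene, was at 7.21, 6.71, 4.55 and 7.92 RPKM in T120D lines 3, 6, 15 and 18, against 16.04 RPKM in wt. This was a 2.43-fold lower mean, with every T120D line below wt (log2 difference -1.19, SE 0.25, limma adjusted p = 0.0157). The call of Fas ended without a filter (adjusted p = 0.12). Ei24, an endoplasmic reticulum gene known as a p53-induced gene, averaged 23.2 ± 2.13 RPKM in T120D lines, against 15.2 RPKM in wt (log2 difference 0.57, limma adjusted p = 0.0327). Its call ended without line 3 (0.067) or line 15 (0.0644), without the filter on low values (0.0981) and by limma without a trend (0.0848). Bax, the pore-forming death effector, averaged 33.3 ± 5.30 RPKM in T120D lines, against 28.3 RPKM in wt, which lay within the T120D range (limma adjusted p = 0.47). Bbc3, encoding Puma, averaged 5.67 ± 1.09 RPKM in T120D lines, against 7.42 RPKM in wt (limma adjusted p = 0.344).

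Of 11 tested metabolic and redox targets, 2 fell and 0 rose (18.2% called, against 13.1% of all tested genes). Dram1, a lysosomal protein gene of autophagy, averaged 4.48 ± 0.803 RPKM in T120D lines (SD, n = 4), against 9.67 RPKM in wt (log2 difference -0.97, limma adjusted p = 0.0234), a call that ended without a filter (0.106). Ddit4, an inhibitor of mTORC1 that also responds to hypoxia, averaged 21.0 ± 3.23 RPKM in T120D lines, against 35.3 RPKM in wt (log2 difference -0.73, limma adjusted p = 0.0287). The call of Ddit4 ended without the filter (0.147) and by limma without a trend (0.0795). Sesn2, the relative of Sesn1, averaged 10.5 ± 1.04 RPKM in T120D lines, against 12.8 RPKM in wt, and was not called (log2 difference -0.28, limma adjusted p = 0.309).

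Both tested secreted or surface targets rose, by more than any member, where 7.65% of all tested genes rose. Thbs1, encoding thrombospondin, was at 112.8, 105, 90.7 and 92.2 RPKM in T120D lines 3, 6, 15 and 18, against 10.1 RPKM in wt. Epha2, an ephrin receptor gene, averaged 26.1 ± 3.10 RPKM in T120D lines (SD, n = 4), against 7.83 RPKM in wt. The log2 difference was 3.18 for Thbs1 (limma adjusted p = 7.45e-06) and 1.61 for Epha2 (limma adjusted p = 0.000433). Thbs1 is also a well-known target gene of TGF-beta.

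DNA repair targets and feedback targets had no calls. Of 5 tested repair genes, 0 were called by limma with or without a trend, and 1 had an unadjusted p under 0.05. Of 4 tested feedback genes, 0 were called either way and 2 had an unadjusted p under 0.05. Of all tested genes, 13.1% were called and 28.5% had an unadjusted p under 0.05. Pml, the organiser of nuclear bodies, averaged 13.6 ± 0.678 RPKM in T120D lines, against 9.77 RPKM in wt (log2 difference 0.44, limma adjusted p = 0.076). Ppm1d, the phosphatase gene that resets p53 signalling, averaged 3.44 ± 0.612 RPKM in T120D lines, against 2.15 RPKM in wt (log2 difference 0.48, limma adjusted p = 0.212). The other 2 had lower values in every T120D line than in wt. Rchy1, a ubiquitin ligase gene for p53, averaged 10.4 ± 0.902 RPKM in T120D lines, against 13.8 RPKM in wt (log2 difference -0.38, limma adjusted p = 0.155). Rfwd2, another such ligase gene, averaged 1.88 ± 0.333 RPKM in T120D lines, against 2.90 RPKM in wt (log2 difference -0.44, limma adjusted p = 0.283).

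Of 19 tested upstream regulators of p53, among them kinases of the damage response, acetyltransferases and ribosomal proteins that bind Mdm2, 0 were called by limma with or without a trend, and 3 had an unadjusted p under 0.05. This is 15.8% of the list, against 28.5% of all tested genes, of which 13.1% were called. The median log2 difference of the regulators was -0.10. Every T120D line lay below wt for 7 of the 19 (36.8%) and above it for 2 (10.5%). Over all tested genes these shares were 32.3% and 31.1%. The 3 genes at an unadjusted p under 0.05 were Gltscr2, a nucleolar protein gene, with a log2 difference of -0.51 (limma adjusted p = 0.0686), Rpl23, a ribosomal protein gene that can share reads with pseudogenes, with -0.41 (0.0821), and Ppp1r13l, which encodes the p53 inhibitor iASPP, with 0.56 (0.116). Chek2, another damage kinase gene, also had a difference of -0.51, with every T120D line below wt. Its SE was wide at 0.42 and it was not called (limma adjusted p = 0.472). Usp7 and Atm lay nearer to 0. Usp7, the deubiquitinase of p53 and Mdm2, averaged 10.8 ± 0.95 RPKM in T120D lines, against 10.5 RPKM in wt, and Atm, the damage kinase gene, 2.69 ± 0.544 RPKM in T120D lines, against 2.51 RPKM in wt. The p53 relative Trp63 was at 0 RPKM in all lines.

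**Figure D4:**
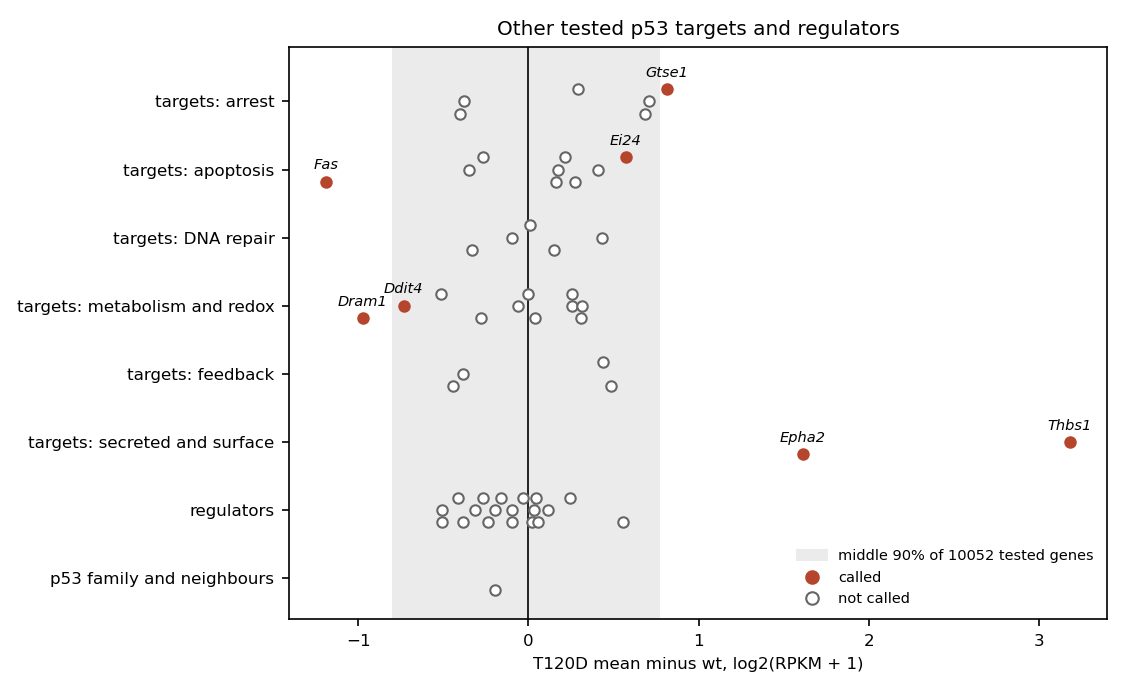
Difference of the T120D mean from the wt line on the log2(RPKM + 1) scale for 57 other tested p53 genes, 1 circle per gene, grouped by role from top to bottom; filled red circles with names passed an adjusted p of 0.05 (limma), open circles did not, and the grey band spans the middle 90% of all 10052 tested genes. The 2 secreted or surface targets lie at 1.61 and 3.18, and Fas at -1.19 is the lowest.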

How the data were processed

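Per the file headers, the authors deposited 1 table of RPKM values per line. Per the labels' protocols, total RNA was extracted with ISOGEN II and stranded TruSeq mRNA libraries were made, and the design text names a MiSeq. Partek and mouse build mm9 are named in the submitters' processing notes. For aligner, annotation and strand the entry is: not given in the sources used here. Genes with near-identical copies are uncertain for that reason.

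The members and gene lists were chosen with earlier results of these data known. Depth was estimated as the number of reads at which low values of single-transcript genes (GENCODE M21 lengths, GRCm38) fall on whole reads. Within 0.05 reads, 46.0% to 54.3% of such values under 20 reads came out whole, too few for a count test. Values were analysed as log2(RPKM + 1) in genes averaging 1 RPKM or more, with limma 3.58.1 in R 4.3.3 (empirical Bayes with trend, two-sided, 3 residual and 5.99 prior degrees of freedom) and Benjamini-Hochberg adjustment over all 10052 genes. The procedure was tested on simulated data. Genes named are the members, up to 6 called genes of each other list, the 3 genes nearest to each extreme called member and Ccnd1. Some genes covered by this rule or by a list are not reported here. Cdkn1a, Btg2, Plk3, Psrc1, Gadd45a, Bax, Bbc3, Sesn2, Pml, Ppm1d, Rchy1, Rfwd2, Gltscr2, Rpl23, Ppp1r13l, Chek2, Usp7, Atm, Wrap53, Trp63 and the fibroblast markers were named after their values were seen. Alternatives numbered 11.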

Additional observations from a re-analysis of the deposited data

Results flagged for a closer look

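Trp53inp1 in T120D line 3 lay apart from the other T120D lines. It was at 9.07 RPKM in line 3, against 7.03 to 7.22 RPKM in lines 6, 15 and 18, a gap of 0.906 of the group's whole range which is above the Dixon limit for 4 samples. Line 3 was still below the 16.5 RPKM of the wt line, and without line 3 the call held (limma adjusted p = 0.00709). Of 17 genes tested in this way 1 was singled out, and chance gives about 1 in 20.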

How the results depend on the processing

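All 10 members kept their direction under the 11 alternatives, except that Sesn1 was not tested at a mean of at least 5 RPKM. The calls of Mdm2 and Trp53inp1 held under all of them. Among members called higher the count was 2, and 1 without the filter on low values and by limma without a trend; among those called lower it was 2, and 1 under these settings and with lines 3, 15 and 18 averaged. Leaving out 1 T120D line gave 1 to 2 members higher. Among other p53 genes the counts were 4 higher and 3 lower. They were 2 and 1 without the filter, and 3 and 2 by limma without a trend. At a mean of at least 5 RPKM the higher count was 5, without line 3 it was 3, and under quantile normalization the lower count was 4. Without the filter more genes were tested, and the variances estimated by limma changed as well. The SE of Mdm2 was then 0.07, against 0.11, yet its limma adjusted p was 0.0114, against 0.00211. Over all genes, 415 were higher without the filter, and 455 were higher and 361 lower without a trend, against 769 and 548. The share of higher genes among calls was 58.4%, and 41.05% without the filter. The filter takes the mean over 4 T120D lines and 1 wt line. A gene expressed in wt alone therefore passes it less easily than one expressed in the T120D lines alone. The shares of 7.65% higher and 5.45% lower were counted under this filter, and its part in them was not tested. The counts of called members were also 2 and 2 under median scaling and quantile normalization. No paired analysis was possible because the single wt line shares no replicate number with the T120D lines. The wt line could not be left out, so no alternative shows how another wt line would lie. Sesn1 rests on the fewest reads.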
